A study of Mus musculus with 48 samples.

Results

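The lipogenesis genes described here are 10 genes taken by name, Srebf1, Acly, Acaca, Acacb, Fasn, Scd1, Elovl6, Me1, Thrsp and Pnpla3, chosen as parts of 1 pathway with earlier results of these data known. They are 10 of the 20622 genes with a cytoplasmic RNA count and 10 of the 16269 with a count of ribosome-protected fragments (RPFs), the short pieces of mRNA that a translating ribosome shields from nuclease. RPFs and cytoplasmic RNA were sequenced from the livers of 24 mice labelled male, of mixed C57BL/6 background, 2 to 4 months old and fed standard diet without restriction. The general methods of the paper describe mice of both sexes. Every mouse, WT included, had received AAV8.TBG.Cre (labelled 2e+11 genome copies), in which the TBG promoter drives Cre in hepatocytes, so the alleles were recombined in those cells and not by design in the others of the liver. The 4 genotypes were wild type (WT), Ctnnb1ex3/+ (B, in which Cre removes the exon of 1 Ctnnb1 allele that marks β-catenin for destruction), R26-LSL-MYC (M, a MYC transgene at the Rosa26 locus behind a stop that Cre removes) and Ctnnb1ex3/+; R26-LSL-MYC (BM, both). Livers of 3 mice of each genotype were taken 4 days and of 3 others 10 days after the virus. This gave 8 groups of 3. The hour of harvest and any fasting are not given in the sources used here.

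De novo lipogenesis turns surplus carbohydrate into fatty acids in the cytosol of hepatocytes. Citrate exported from mitochondria is split by ATP citrate lyase (Acly) to acetyl-CoA, the acetyl-CoA carboxylases (Acaca, the cytosolic form that feeds synthesis, and Acacb, the mitochondrion-associated form whose malonyl-CoA also restrains fatty acid oxidation) make malonyl-CoA, and fatty acid synthase (Fasn) builds palmitate with NADPH that malic enzyme (Me1) helps to supply. Elovl6 lengthens palmitate to stearate, Scd1 desaturates stearate and palmitate to oleate and palmitoleate, Pnpla3 is a lipid droplet protein, and Thrsp (Spot 14) is a small nuclear and cytosolic protein that tracks lipogenic state. Srebf1 encodes SREBP1, the transcription factor that feeding and insulin activate and that drives most of these genes. The pathway is high in the fed liver and low in the fasted one.

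The CCAAT box is bound by NF-Y, which acts beside SREBP on many lipogenic promoters, so the windows of Fasn and Thrsp are shown, members whose footprints fell in BM livers of day 10 and whose window holds it on both strands. Each window holds 250 bases before and 50 bases after a RefSeq start (GRCm38.p6), is written 5′ to 3′ on the strand of the gene, and has the letters CCAAT or their complement ATTGG in capitals. Fasn lies at chr11:120824498-120824797 and Thrsp at chr7:97417501-97417800, both on the minus strand. Matched letter for letter to GRCm39, the Fasn start lies 29 bases past the annotated start of the transcript on which its RPFs were counted. The Thrsp start lies 11 bases before the nearest annotated transcript start and 180 bases past that of the counted transcript.
Fasn: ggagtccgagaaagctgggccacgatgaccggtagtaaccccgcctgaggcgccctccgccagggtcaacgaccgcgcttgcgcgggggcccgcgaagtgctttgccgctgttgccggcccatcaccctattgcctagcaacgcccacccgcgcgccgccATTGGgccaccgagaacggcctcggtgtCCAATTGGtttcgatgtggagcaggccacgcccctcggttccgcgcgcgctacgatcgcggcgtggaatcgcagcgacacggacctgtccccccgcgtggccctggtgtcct
Thrsp: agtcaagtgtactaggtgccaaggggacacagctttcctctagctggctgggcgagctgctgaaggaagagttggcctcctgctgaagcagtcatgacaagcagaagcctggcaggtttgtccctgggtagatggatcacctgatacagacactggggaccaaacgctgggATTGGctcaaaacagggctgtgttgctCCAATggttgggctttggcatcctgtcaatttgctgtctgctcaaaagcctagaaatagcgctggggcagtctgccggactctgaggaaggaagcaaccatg

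The Fasn window held the letters 3 times, 90, 62 and 59 bases before the start, the last pair on opposite strands and overlapping. Thrsp held them 2 times, 79 and 52 bases before the start. The table's single windows of Acaca and Acacb lie at starts inside those genes, 65788 and 19272 bases past the annotated gene starts on GRCm39 and 22316 and 19272 bases past those of the counted transcripts, so they are not shown. Searched on both strands, CCAAT was in 8 of the 12 windows of the 9 members in the RefSeq table and in 37.4% of all 32851 windows of the same length. 5.80% of all windows held it on both strands, as Fasn and Thrsp did. The E-box CACGTG was in none of the 12 windows and in 7.15% of all. The sterol response element TCACNCCAC was in none and in 1.24% of all. The 12 include the windows of Acaca, without a match, and Acacb, with 1. They also include windows of Srebf1 and Me1 that start 10171 and 8774 bases past the counted transcripts, each with 1 match. The 1 match of Acly lies past its start. These counts describe letters in a fixed window and not sites in use.

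The 24 RPF libraries held 9742197 to 14380713 counts and the RNA libraries 3254141 to 6540116 counts. Levels are given as CPM, counts scaled to the size of the library by the trimmed mean of M values. Genotype labels were checked on Glul, a β-catenin target, whose RPF level was 3060, 3995 and 4648 CPM in B and 849.8, 862 and 825 CPM in WT mice of day 4. It was above every WT mouse in all B and BM mice of both days. Myc was 62.1, 57.5 and 61.6 CPM in M and 18.3, 2.43 and 13.1 CPM in WT mice of day 4. It was above every WT mouse in all M and BM mice. The livers were hepatocyte-rich by 8 marker genes (Alb, Ttr, Apoa1, Apob, Serpina1a, Cps1, Hnf4a and Ahsg), and in most of the other groups 5 or more of the 8 were lower than in WT. On day 4, 3 of the 8 fell in B, 7 in M and 8 in BM livers, where 6.26%, 14.7% and 24.7% of all genes tested fell. On day 10, 6 fell in B, 5 in M and 5 in BM livers, where 12.1%, 8.8% and 22.3% of all genes fell, and 1 rose in BM livers. Their summed RPF level was 102580 to 115423 CPM in WT, 88646 to 104464 CPM in B, 70474 to 88344 CPM in M and 56233 to 66308 CPM in BM mice of day 4, the B mice overlapping WT. On day 10 the sums were 103608 to 128614 CPM in WT, 65441 to 67829 CPM in B, 66724 to 68373 CPM in M and 55573 to 67136 CPM in BM mice. In whole liver, fewer hepatocytes and less RNA per hepatocyte cannot be told apart, and the part of the lower markers in the results was not tested.

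The BM mice of day 10 did not resemble each other. Mice 2 and 3 had high footprints of Pck1, Igfbp1 and Ppargc1a, which fasting induces, and mouse 1 had much less. Pck1, the gluconeogenic enzyme, was at 649, 3548 and 3922 CPM in BM mice 1, 2 and 3 and 1124, 1224 and 1241 CPM in the WT mice. Igfbp1, an insulin-repressed secreted protein, was at 318, 3425 and 4604 CPM against 32.6, 175 and 65.3 CPM. The coactivator gene Ppargc1a was at 27.4, 173 and 232 CPM against 9.27, 12.5 and 11.9 CPM. The clock gene Per1 was at 24.5, 71.3 and 87.1 CPM against 2.10, 1.43 and 0.961 CPM, above WT in all 3 BM mice. Summed over 12 fasting-induced genes, the level was 2795 to 11288 CPM in BM and 3379 to 4104 CPM in WT mice of day 10, and over 13 clock genes 157 to 282 CPM and 139 to 170.2 CPM. By gene, 4 rose and 2 fell of 11 tested on the first list and 4 rose and 1 fell of 13 tested on the second in BM against WT livers of day 10, where 24.5% of all genes rose and 22.3% fell. The genes named above thus do not stand for the whole of their lists. Without mouse 1 the counts were 6 up and 3 down of 12 and 6 up and 2 down of 13, where 3830 of 11475 genes rose and 3781 fell, and of the 8 hepatocyte markers 2 rose and 5 fell. On day 4 the clock sums were 100 to 120 CPM in BM, 126 to 129 CPM in M and 130 to 146 CPM in WT mice. On day 10 they were 110 to 129 CPM in B mice, so these 3 groups lay below every WT mouse. By gene, 0 of the 11 tested rose and 6 fell in BM of day 4, where 24.7% of all genes fell. In M of day 4, 1 rose and 2 fell of 11, and in B of day 10, 2 rose and 2 fell of 11. Feeding state and hour of the mice were not labelled, and their part in the results was not tested. The members' counts that use these 3 mice are therefore also given without mouse 1, and those against WT also for mouse 1 alone. Genes of the pathway lists are given with all 3 mice, followed by the counts, and by values that moved, without mouse 1.

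In WT livers of day 10 the pathway was led by its desaturase. On the length-normalised RNA scale (TPM, RNA per transcript length, mean ± SD, n = 3), Scd1 was at 7217 ± 723 TPM, far above every other member. Thrsp followed at 387 ± 164 TPM and Acly at 296 ± 80.2 TPM, which overlapped between mice. Me1 was at 146 ± 23.8 TPM, below every Acly value. Fasn at 94.9 ± 27.7 TPM and Elovl6 at 87.2 ± 14.0 TPM overlapped, and so did Srebf1 at 48.2 ± 9.19 TPM and Acaca at 41.2 ± 3.42 TPM. Acacb stood at 20.3 ± 2.34 TPM and Pnpla3, the rarest, at 3.48 ± 1.54 TPM. On the footprint scale, RPF CPM per kilobase of coding sequence, Scd1 again led with 3835, followed by Thrsp with 503, Me1 with 463, Fasn with 379 and Acly with 291. By their means, Me1 and Fasn moved above Acly between the 2 scales, though Thrsp, Me1, Fasn and Acly all overlapped between mice on the footprint scale. Pnpla3 stayed last with 2.85.

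**Figure D1:**
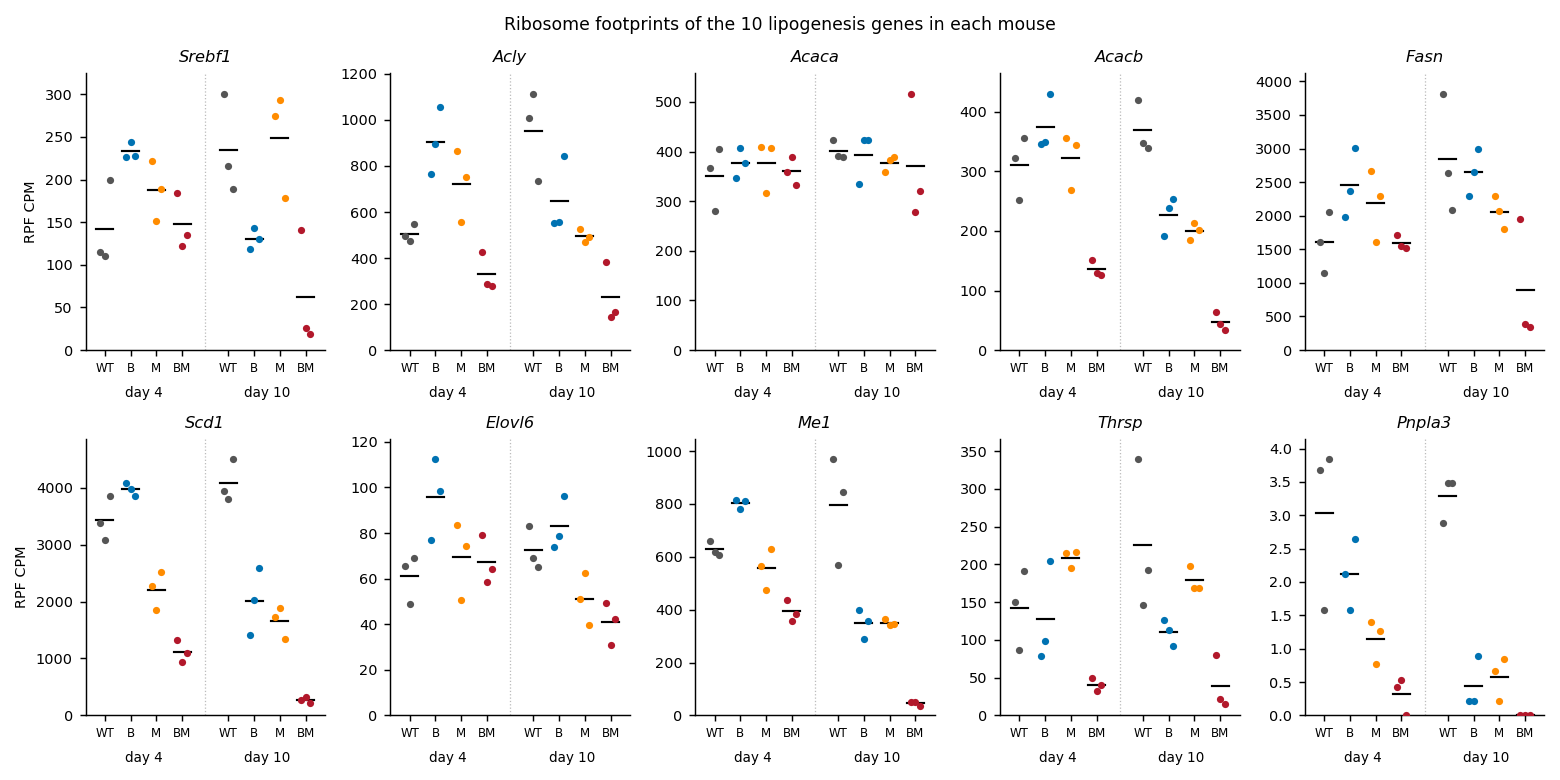
RPF level (CPM, linear axes from 0) of each lipogenesis gene in each of the 24 mice, by genotype and day, with 1 point a mouse and a bar at the mean of 3. Scd1, Acacb and Me1 stepped down in BM mice on day 4 and again on day 10, the group means of Acaca lay within 1.14-fold of each other, and BM mouse 1 of day 10 stood above mice 2 and 3 for Srebf1, Acly, Acaca, Fasn and Thrsp.

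The first question was what β-catenin and MYC together did to the pathway by day 4. In BM livers the footprints of 6 of the 10 members fell, and those of Srebf1, Acaca, Fasn and Elovl6 did not pass the test (edgeR's quasi-likelihood test, Benjamini-Hochberg adjustment over all genes, threshold 0.1). 24.7% of the 11375 genes tested fell and 26.2% rose in the same comparison, and the median log2 change was -0.62 over the members and -0.00072 over all genes. Scd1 was at 1316, 939 and 1093 CPM in BM and 3382, 3090 and 3853 CPM in WT mice. It thus fell 3.04-fold with no overlap (log2 change -1.60, SE 0.13, adjusted p = 3.66e-06). Acacb was at 151, 130.1 and 127 CPM against 323, 252 and 357 CPM (log2 change -1.17, SE 0.12, adjusted p = 2.42e-05), a 2.25-fold fall of the carboxylase that restrains oxidation. Acaca, its partner in synthesis, was at 359, 388 and 332 CPM against 366, 280.1 and 405 CPM, the same range (log2 change 0.061, SE 0.13, adjusted p = 0.727). Thrsp fell 3.46-fold, from 150.4, 86.1 and 191 CPM to 49.0, 32.4 and 40.2 CPM (log2 change -1.79, SE 0.24, adjusted p = 0.000134).

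Acly and Me1, for carbon and NADPH supply, fell by smaller folds. Acly was at 427, 286 and 279 CPM in BM against 496, 474 and 548 CPM in WT mice of day 4 (log2 change -0.59, SE 0.14, adjusted p = 0.00628). Me1 was at 438, 358 and 383 CPM against 661, 618 and 606 CPM (log2 change -0.65, SE 0.089, adjusted p = 0.000147). Both groups were apart in each gene, by 1.51-fold and 1.57-fold. Pnpla3, with only 13 to 40 counts in a WT library, had 7, 8 and 0 counts in the BM libraries (log2 change -3.20, SE 0.56, adjusted p = 0.000791). Fasn, the synthase itself, was at 1709, 1556 and 1523 CPM against 1606, 1153 and 2054 CPM and overlapped (log2 change 0.015, SE 0.17, adjusted p = 0.951). Srebf1 was at 184, 123 and 135 CPM against 115, 111 and 200.1 CPM (adjusted p = 0.799). Elovl6 was at 79.0, 58.7 and 64.4 CPM against 65.6, 48.7 and 69.0 CPM (adjusted p = 0.374). Leaving out WT mouse 3 gave Srebf1 an adjusted p of 0.0680 in the upward direction, and none of the 6 falls was lost without any single mouse, though that of Acly was with all 24 mice in 1 fit (adjusted p = 0.102). The summed fasting-induced level was 2756 to 3608 CPM in these BM mice and 6293 to 8531 CPM in the WT mice, lower in every BM mouse. By gene, 5 of the 11 tested rose and 4 fell, where 26.2% of all genes rose and 24.7% fell. The list thus did not move in 1 direction.

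On day 10, footprints of 9 of the 10 members were lower in BM than in WT livers and Acaca did not pass, where 22.3% of the 11346 genes tested fell and 24.5% rose. The median log2 change was -2.31 over the members and 0.034 over all genes. Me1 was at 52.2, 49.2 and 34.3 CPM in BM and 969.7, 569.9 and 846 CPM in WT mice, a 17.7-fold fall (log2 change -4.15, SE 0.28, adjusted p = 0.000117). Scd1 was at 262, 323 and 214 CPM against 3945, 3803 and 4506 CPM, a 15.5-fold fall (log2 change -3.95, SE 0.24, adjusted p = 0.000102). Acacb was at 63.1, 43.6 and 33.6 CPM against 421, 347 and 339 CPM, a 7.96-fold fall (log2 change -2.99, SE 0.26, adjusted p = 0.000267). These 3 were low in all 3 BM mice, mouse 1 included. Pnpla3 had no footprint in any BM library and 29 to 34 in a WT library, which at a floor of 3 counts a library is at least 15.0-fold lower (adjusted p = 0.000698).

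For the transcription factor and 3 other members, Fasn, Acly and Thrsp, the size of the fall depended on the mouse. Srebf1 was at 141, 25.6 and 18.4 CPM in BM mice 1, 2 and 3 and 301, 216 and 189 CPM in the WT mice (log2 change -1.94, SE 0.71, adjusted p = 0.0633). Fasn was at 1950, 390.2 and 344 CPM and 3816, 2630 and 2088 CPM (log2 change -1.69, SE 0.65, adjusted p = 0.0767). Mouse 1 lay nearer to the lowest WT mouse than to BM mice 2 and 3 in both genes. Leaving out any 1 of the other 5 mice gave an adjusted p of 0.106 to 0.163 for Srebf1 and 0.114 to 0.203 for Fasn, so neither call held there. Acly was at 382, 143 and 166 CPM against 1008, 1114 and 735 CPM (log2 change -2.06, SE 0.39, adjusted p = 0.00584). Thrsp was at 80.4, 21.2 and 15.3 CPM against 339, 147 and 193 CPM (log2 change -2.55, SE 0.63, adjusted p = 0.0170). In both, mouse 1 was again the highest of the 3. Elovl6, with a narrower spread, was at 49.3, 31.0 and 42.5 CPM against 83.2, 69.1 and 65.1 CPM (log2 change -0.84, SE 0.20, adjusted p = 0.0148). Acaca was at 516, 279 and 319.9 CPM against 424, 391 and 389 CPM, with mouse 1 above and mice 2 and 3 below every WT mouse (log2 change -0.13, SE 0.24, adjusted p = 0.702).

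Without mouse 1, all 10 members fell on the footprint level, in a comparison where 32.9% of the 11475 genes tested fell. The log2 change became -3.43 (adjusted p = 7.36e-07) for Srebf1, -2.96 (adjusted p = 3.69e-06) for Fasn, -3.64 (adjusted p = 7.16e-06) for Thrsp and -0.43 (adjusted p = 0.0135) for Acaca. Acly was at -2.63 (adjusted p = 1.46e-06), and values that moved less were Scd1 at -3.94 (adjusted p = 2.19e-07), Me1 at -4.26 (adjusted p = 4.74e-07), Elovl6 at -0.99 (adjusted p = 0.000377) and Acacb at -3.27 (adjusted p = 1.66e-07). Mouse 1 set alone against the 3 WT mice, a comparison added after the values had been seen and in which its spread is taken from the WT mice, had 8 of the 10 members down and 19.2% of the 11878 genes tested down. Scd1 with -3.98 (adjusted p = 2.52e-05), Me1 with -3.95 (adjusted p = 6.46e-05) and Acacb with -2.57 (adjusted p = 5.31e-05) fell in it too, and so did Acly with -1.34 (adjusted p = 0.00443), Thrsp with -1.52 (adjusted p = 0.0183), Elovl6 at -0.58 (adjusted p = 0.0372) and, to a lesser degree, Srebf1 with -0.76 (adjusted p = 0.0454). Fasn with -0.56 (adjusted p = 0.220) and Acaca with 0.34 (adjusted p = 0.158) did not pass. Mouse 1 had Pck1 below every WT mouse and Igfbp1, Ppargc1a and Per1 above every WT mouse. In it Scd1 lay between the values of mice 2 and 3, and Me1 and Acacb lay above them and far below WT.

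**Figure D2:**
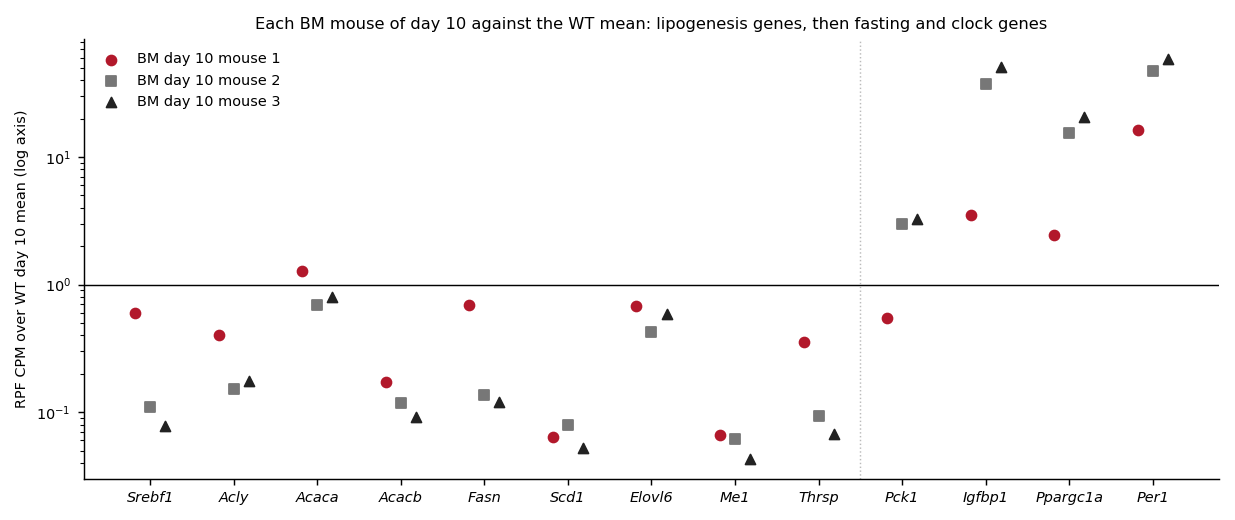
RPF level of each BM mouse of day 10 over the mean of the 3 WT mice of day 10 (log axis), for 9 lipogenesis genes and, right of the dotted line, Pck1, Igfbp1, Ppargc1a and Per1. Pnpla3, with no footprint in BM, is left out. Scd1, Me1 and Acacb lie far below WT in all 3 mice, and Srebf1, Fasn, Acly and Thrsp lie higher in mouse 1, whose Pck1, Igfbp1, Ppargc1a and Per1 are the lowest of the 3.

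The change between the days was tested directly, as the BM effect of day 10 minus that of day 4 and within the BM and WT genotypes. The effect was more negative on day 10 for 7 members, where 18.6% of the 11728 genes tested fell and 17.2% rose. Me1 had the largest shift of those with counts in every group (log2 change -3.48, SE 0.28, adjusted p = 1.19e-05), followed by Scd1 (log2 change -2.34, SE 0.25, adjusted p = 8.81e-05), Srebf1 (log2 change -2.00, SE 0.82, adjusted p = 0.0885), Acacb (log2 change -1.81, SE 0.29, adjusted p = 0.00107), Acly (log2 change -1.46, SE 0.44, adjusted p = 0.0303) and Elovl6 (log2 change -0.99, SE 0.27, adjusted p = 0.0167). Pnpla3 also passed (adjusted p = 0.0459), with no BM count on day 10 to give a size. Fasn had a log2 shift of -1.69 (adjusted p = 0.111), Thrsp of -0.74 (adjusted p = 0.478) and Acaca of -0.18 (adjusted p = 0.689), none past the threshold. Without BM mouse 1 of day 10, where 31.5% of the 11814 genes tested fell, all 10 passed, with Srebf1 at -3.52 (adjusted p = 3.42e-06), Acly at -2.05 (adjusted p = 1.72e-05), Fasn at -3.00 (adjusted p = 4.29e-06), Thrsp at -1.87 (adjusted p = 0.00410) and Acaca at -0.51 (adjusted p = 0.0335).

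Within the BM genotype, 4 of the 9 members tested fell from day 4 to day 10, where 22.6% of the 11648 genes tested fell and 22.7% rose. These were Me1 (log2 change -3.15, SE 0.20, adjusted p = 0.000242), Scd1 (log2 change -2.09, SE 0.21, adjusted p = 0.000955), Acacb (log2 change -1.57, SE 0.23, adjusted p = 0.00336) and Elovl6 (log2 change -0.75, SE 0.20, adjusted p = 0.0253). Without mouse 1 of day 10 all 9 fell, as did 35.4% of the 11764 genes tested, with Srebf1 at -2.76 (adjusted p = 3.79e-06) and Fasn at -2.14 (adjusted p = 5.29e-07). Of the members in WT mice, Acly alone rose (log2 change 0.91, SE 0.15, adjusted p = 0.00896), and 2.28% of the 10899 genes tested fell and 2.17% rose. With all 24 mice in 1 fit that call was lost (adjusted p = 0.182), and without a filter on low counts Srebf1 and Fasn passed as well. Fasn in WT mice went from 1606, 1153 and 2054 CPM to 3816, 2630 and 2088 CPM without passing (log2 change 0.83, SE 0.24, adjusted p = 0.103), and Srebf1 went from 115, 111 and 200.1 CPM to 301, 216 and 189 CPM (log2 change 0.73, SE 0.23, adjusted p = 0.129). The summed fasting-induced level of WT mice was 6293 to 8531 CPM on day 4 and 3379 to 4104 CPM on day 10, without overlap, and its part in a difference between the days was not tested. By gene, 1 of the 12 tested on that list rose and 4 fell, where 2.17% of all genes rose and 2.28% fell. The count of members that rose in WT mice was 3 without mouse 3 of day 4, 5 without mouse 2 of day 10 and 2 without mouse 3 of day 10.

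With activated β-catenin alone, 5 of the 10 members had higher footprints on day 4, and of these only Acly kept its call whichever mouse was left out. Those that rose in B livers were Acly, Srebf1, Elovl6, Fasn and Me1, and the other 5 did not pass, where 6.21% of the 11058 genes tested rose and 6.26% fell. The median log2 change was 0.30 over the members and -0.012 over all genes. Acly was at 765, 897 and 1056 CPM in B and 496, 474 and 548 CPM in WT mice, a 1.77-fold rise (log2 change 0.83, SE 0.12, adjusted p = 0.00156). Srebf1 was at 227, 244 and 228 CPM against 115, 111 and 200.1 CPM (log2 change 0.70, SE 0.19, adjusted p = 0.0448). Elovl6 was at 76.8, 112 and 98.4 CPM against 65.6, 48.7 and 69.0 CPM (log2 change 0.63, SE 0.15, adjusted p = 0.0283). Every B mouse was above every WT mouse in these 3. Me1 was at 815, 781 and 811 CPM against 661, 618 and 606 CPM (log2 change 0.34, SE 0.08, adjusted p = 0.0243), also apart. Fasn was at 1976, 2373 and 3012 CPM against 1606, 1153 and 2054 CPM, which overlapped (log2 change 0.60, SE 0.20, adjusted p = 0.0965).

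The calls of day 4 in B livers depended on single mice, Acly excepted. With all 24 mice in 1 fit 0 members were called, where 335 of the 12000 genes tested rose and 242 fell. Srebf1 was lost without WT mouse 1, WT mouse 2 or B mouse 2 (adjusted p = 0.113 to 0.176), Fasn without WT mouse 1, WT mouse 2, B mouse 2 or B mouse 3 (adjusted p = 0.165 to 0.284), Me1 without WT mouse 3 (adjusted p = 0.113) and Elovl6 without B mouse 2 (adjusted p = 0.101). Among the members that did not pass, Scd1 was at 4083, 3978 and 3860 CPM (log2 change 0.19, adjusted p = 0.304). Acacb was at 346, 349 and 431 CPM (log2 change 0.26, adjusted p = 0.299). Thrsp was at 79.0, 98.4 and 205 CPM (log2 change -0.18, adjusted p = 0.833). Acaca had a log2 change of 0.088 (adjusted p = 0.769) and Pnpla3 of -0.55 (adjusted p = 0.389). The summed fasting-induced level was 4279 to 5559 CPM in B and 6293 to 8531 CPM in WT mice of day 4, and Pck1 was 1315, 904 and 1448 CPM and 2718, 4253 and 3248 CPM, both lower in every B mouse. By gene, 4 of the 12 on the list rose and 4 fell, where 6.21% of all genes rose and 6.26% fell. The part of these genes in the members' rise was not tested.

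On day 10, 6 of the 10 members had lower footprints in B livers. These were Srebf1, Acacb, Scd1, Me1, Thrsp and Pnpla3, and Acly, Acaca, Fasn and Elovl6 did not pass, where 12.1% of the 11454 genes tested fell and 13.1% rose. The median log2 change was -0.79 over the members and 0.007 over all genes. Me1 was at 398, 290.2 and 358 CPM in B and 969.7, 569.9 and 846 CPM in WT mice (log2 change -1.21, SE 0.20, adjusted p = 0.00483). Scd1 was at 1412, 2032 and 2594 CPM against 3945, 3803 and 4506 CPM (log2 change -1.03, SE 0.22, adjusted p = 0.0117). They were 2.31-fold and 2.04-fold lower. Srebf1 was at 118, 143 and 129.8 CPM against 301, 216 and 189 CPM (log2 change -0.87, SE 0.17, adjusted p = 0.00988). Acacb was at 191, 238 and 253 CPM against 421, 347 and 339 CPM (log2 change -0.71, SE 0.15, adjusted p = 0.0115). Thrsp was at 126, 113 and 92.0 CPM against 339, 147 and 193 CPM (log2 change -1.05, SE 0.27, adjusted p = 0.0292). No B mouse reached a WT mouse in any of the 6, and with all 24 mice in 1 fit Srebf1 (adjusted p = 0.217) and Thrsp (adjusted p = 0.117) were not called. Pnpla3 had 3, 3 and 13 counts in the B libraries (log2 change -2.83, SE 0.46, adjusted p = 0.00396), and without B mouse 3 its log2 change was -3.85. Fasn stayed at 2298, 2652 and 2993 CPM against 3816, 2630 and 2088 CPM (log2 change -0.12, SE 0.22, adjusted p = 0.754). Acly was at 550.2, 555 and 843 CPM against 1008, 1114 and 735 CPM (log2 change -0.56, SE 0.21, adjusted p = 0.103), and leaving out WT mouse 3 or B mouse 3 brought it past the threshold (adjusted p = 0.0136 to 0.0806).

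With MYC alone, 4 of the 10 members passed on day 4, in both directions. In M livers Acly and Thrsp rose, Scd1 and Pnpla3 fell and 6 members did not pass. Of the 11115 genes tested, 18.5% rose and 14.7% fell, so the members' shares lay near those of all genes. With all 24 mice in 1 fit only the falls were called, 2 in number, where 1282 of the 12000 genes tested rose and 1106 fell. The median log2 change was 0.17 over the members and 0.014 over all genes. Acly was at 865, 555 and 751 CPM in M and 496, 474 and 548 CPM in WT mice (log2 change 0.55, SE 0.14, adjusted p = 0.0168). Thrsp was at 216, 195 and 216 CPM against 150.4, 86.1 and 191 CPM (log2 change 0.58, SE 0.22, adjusted p = 0.0817). The groups were apart in both, but Thrsp was lost without WT mouse 1, M mouse 1 or M mouse 3 (adjusted p = 0.149 to 0.176). Scd1 was at 2274, 1845 and 2515 CPM against 3382, 3090 and 3853 CPM, a 1.52-fold fall (log2 change -0.61, SE 0.12, adjusted p = 0.00514), and Pnpla3 had 10 to 16 counts a library against 13 to 40 (log2 change -1.40, SE 0.37, adjusted p = 0.0205). Srebf1 had a log2 change of 0.43 (adjusted p = 0.176) and Fasn of 0.48 (adjusted p = 0.132). Srebf1 and Fasn passed upwards without WT mouse 3 or M mouse 2 (adjusted p = 0.00813 to 0.0832 and 0.0282 to 0.0500), and Elovl6 without M mouse 2 (adjusted p = 0.0609). The summed fasting-induced level was 4881 to 5363 CPM in M mice of day 4, below every WT mouse, and its part in these changes was not tested. By gene, 1 of the 11 tested on that list rose and 3 fell, where 18.5% of all genes rose and 14.7% fell.

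On day 10 the M livers had 6 members down, Acly, Acacb, Scd1, Elovl6, Me1 and Pnpla3, where 8.8% of the 11300 genes tested fell and 10.6% rose, with a median log2 change of -0.70 over the members and -0.001 over all genes. Me1 was at 364, 343 and 346 CPM in M and 969.7, 569.9 and 846 CPM in WT mice (log2 change -1.18, SE 0.19, adjusted p = 0.00823). Scd1 was at 1735, 1890 and 1345 CPM against 3945, 3803 and 4506 CPM (log2 change -1.30, SE 0.16, adjusted p = 0.00352). Acacb was at 185, 214 and 202 CPM against 421, 347 and 339 CPM (log2 change -0.88, SE 0.13, adjusted p = 0.00578). Every M mouse was below every WT mouse in all 3. Acly, which had risen on day 4, was at 525, 470.5 and 493 CPM against 1008, 1114 and 735 CPM (log2 change -0.94, SE 0.16, adjusted p = 0.0101). Pnpla3 had 9, 3 and 11 counts (log2 change -2.50, SE 0.38, adjusted p = 0.00702). Elovl6 was at 51.0, 62.3 and 39.7 CPM against 83.2, 69.1 and 65.1 CPM (log2 change -0.51, SE 0.17, adjusted p = 0.0940), a call lost without any 1 of the WT mice, M mouse 1 or M mouse 3 (adjusted p = 0.116 to 0.249). Srebf1 stayed at 274, 294 and 178 CPM against 301, 216 and 189 CPM (log2 change 0.078, SE 0.23, adjusted p = 0.855). Thrsp had a log2 change of -0.34 (adjusted p = 0.444) and Fasn of -0.47 (adjusted p = 0.199). On day 10 the fasting-induced sums of B mice, 2652 to 3843 CPM, and of M mice, 2338 to 3575 CPM, overlapped that of the WT mice. By gene, 6 of the 12 tested rose and 2 fell in B livers, where 13.1% of all genes rose and 12.1% fell. In M livers 0 of the 11 tested rose and 3 fell, where 10.6% of all genes rose and 8.8% fell. Their part in the members' changes was not tested. The 3 genotypes share the WT mice of their day, so their counts are not independent of each other.

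**Figure D3:**
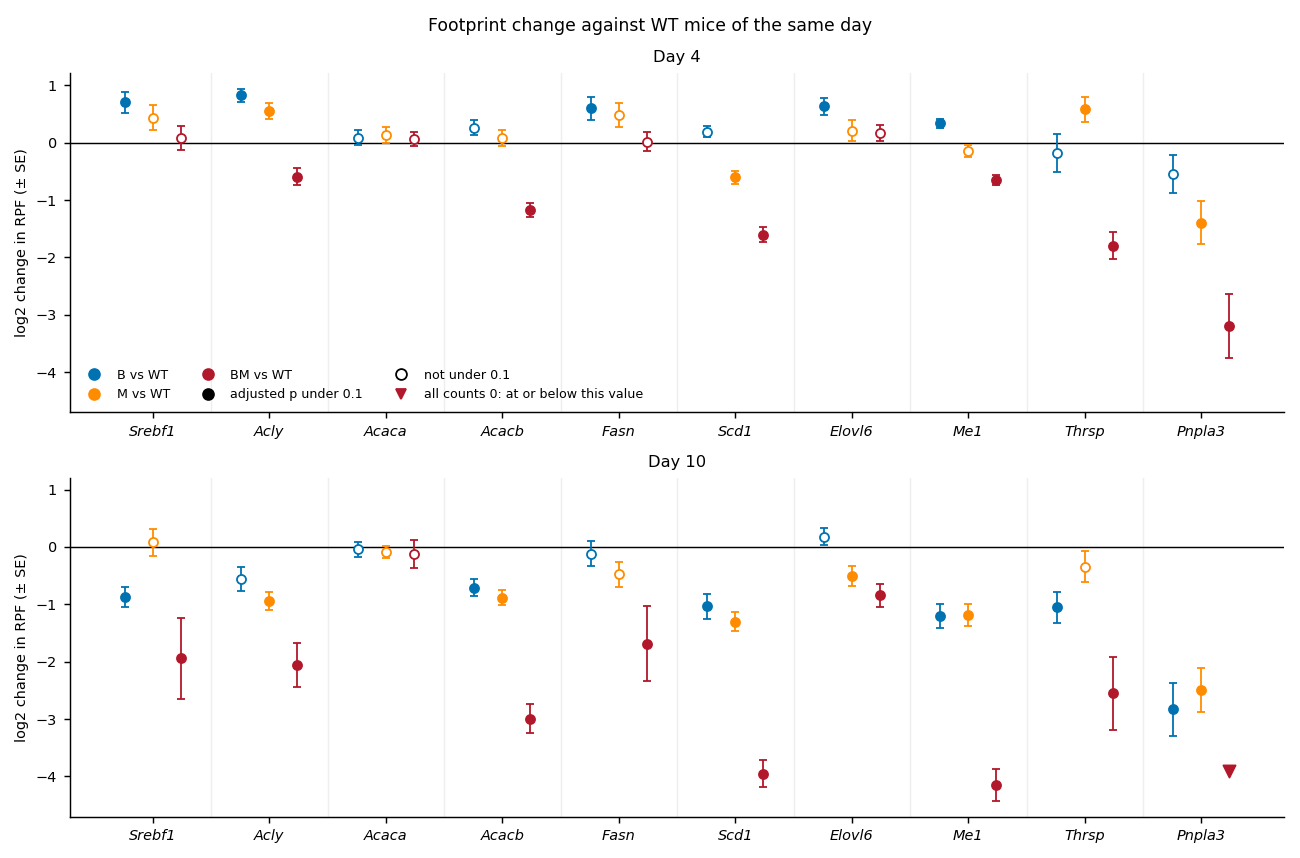
Log2 change in RPFs against the WT mice of the same day (± SE, 3 against 3 mice) for each lipogenesis gene in B, M and BM livers, day 4 above and day 10 below, filled where the adjusted p was under 0.1. B rises of day 4 and the BM falls of day 10 lie on opposite sides of 0 for Srebf1, Acly, Fasn, Elovl6 and Me1, and Pnpla3 of BM on day 10, with no count, is drawn as a bound.

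The double genotype was also set against each single one. On day 4, 9 members were lower in BM than in B livers, where 21.5% of the 11373 genes tested fell and 23.2% rose, and 7 were lower than in M livers, where 19.3% of the 11411 genes tested fell and 18.8% rose. Against B, Scd1 had a log2 difference of -1.80 (adjusted p = 9.39e-06), Acacb of -1.43 (adjusted p = 1.25e-05), Acly of -1.42 (adjusted p = 0.000173), Thrsp of -1.61 (adjusted p = 0.00257) and Me1 of -0.99 (adjusted p = 3.58e-05). Srebf1 with -0.63 (adjusted p = 0.00453) and Fasn with -0.58 (adjusted p = 0.00975) passed here, though not with all 24 mice in 1 fit (adjusted p = 0.323 and 0.318). Against M, Thrsp differed by -2.38 (adjusted p = 4.03e-06), Acacb by -1.26 (adjusted p = 7.23e-05), Acly by -1.15 (adjusted p = 0.00178), Scd1 by -1.0 (adjusted p = 0.000868), Me1 by -0.52 (adjusted p = 0.00798) and Fasn by -0.47 (adjusted p = 0.0514, and 0.524 with all 24 mice). Acaca passed in neither, with -0.028 (adjusted p = 0.840) and -0.084 (adjusted p = 0.614).

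On day 10, 6 of the 9 members tested were lower in BM than in M livers, where 16.7% of the 11524 genes tested fell and 16% rose, and 6 lower than in B livers, where 17.7% of the 11605 genes tested fell and 18.8% rose. Me1 was 7.87-fold lower than in M (log2 change -2.98, SE 0.20, adjusted p = 0.000405) and 7.63-fold lower than in B (log2 change -2.93, SE 0.22, adjusted p = 0.00086). Scd1 was 6.32-fold (log2 change -2.66, SE 0.24, adjusted p = 0.00105) and 7.48-fold lower (log2 change -2.90, SE 0.29, adjusted p = 0.00180), and Acacb 4.35-fold (log2 change -2.12, SE 0.24, adjusted p = 0.00228) and 4.83-fold lower (log2 change -2.27, SE 0.25, adjusted p = 0.00297). Without BM mouse 1 the counts were 8 against M, where 28.6% of the 11604 genes tested fell, and 9 against B, where 30.7% of 11747 fell, with Fasn past the threshold in both, at log2 differences of -2.45 (adjusted p = 7.87e-05) and -2.82 (adjusted p = 2.1e-05), and Srebf1 at -3.46 (adjusted p = 0.000183) and -2.53 (adjusted p = 4.01e-05). With all 3 mice Srebf1 differed by -2.05 (adjusted p = 0.0838) from M and by -1.07 (adjusted p = 0.268) from B. Against M the count was 3 without M mouse 1 or without BM mouse 2.

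RNA was counted at lower depth, and 9 of the 10 members could be tested in every comparison. Pnpla3 had at most 20 RNA counts in a library. In fits on the groups compared, with all their mice, it was tested only in WT mice between the days and in the change of the BM effect. It also entered the fit of all 24 mice. In BM livers of day 4, RNA of Acly, Acacb, Scd1 and Thrsp fell and RNA of Fasn and Elovl6 rose, where 20.6% of the 11211 genes tested fell and 21.3% rose. The 2 rises of 9 members tested lay near the share of all genes. Fasn RNA was at 435, 437 and 352 CPM in BM and 321, 222 and 339 CPM in WT mice (log2 change 0.47, SE 0.14, adjusted p = 0.0198), above WT in each, while its footprints had a log2 change of 0.015. With all 24 mice in 1 fit neither rise was called. Elovl6 RNA had a log2 change of 0.37 (adjusted p = 0.0741), lost without WT mouse 1, WT mouse 2, BM mouse 1 or BM mouse 3 (adjusted p = 0.124 to 0.252). Me1 RNA was at 278, 236 and 239 CPM against 302, 240.1 and 272 CPM (log2 change -0.11, SE 0.11, adjusted p = 0.453), where its footprints had fallen. Scd1 RNA fell by 1.65 on the log2 scale (adjusted p = 1.54e-05) and Thrsp RNA fell by 1.78 (adjusted p = 5.53e-06), close to their footprint changes of -1.60 and -1.79.

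In BM livers of day 10, RNA of 7 members fell, all but Acaca and Fasn, where 22.8% of the 11125 genes tested fell and 22.9% rose. Scd1 RNA was at 1036, 1138 and 958 CPM against 23386, 22915 and 23296 CPM (log2 change -4.48, SE 0.20, adjusted p = 5.36e-06), a 22.3-fold fall. Me1 RNA fell 8.5-fold (log2 change -3.09, SE 0.22, adjusted p = 4.34e-05) and Acacb RNA 4.29-fold (log2 change -2.10, SE 0.16, adjusted p = 5.41e-05), less than their footprints. Fasn RNA was at 536, 177 and 190.4 CPM against 744, 585 and 429 CPM (log2 change -0.96, SE 0.42, adjusted p = 0.103), and without BM mouse 1 its log2 change was -1.69 (adjusted p = 3.98e-05). Srebf1 RNA without that mouse was at -2.56 (adjusted p = 3.47e-07) and Thrsp RNA at -3.21 (adjusted p = 1.1e-05) as log2 changes, against -1.87 and -2.21 with it. In all, RNA of 9 members fell without mouse 1, where 29.2% of the 11412 genes tested fell. Pnpla3, without a BM count, was filtered out of the fit of the 2 groups with all their mice. It entered those without mouse 1 and of mouse 1 alone. Of the 9 members tested with all mice of the 2 groups, 8 thus fell without mouse 1. For mouse 1 alone, RNA of 8 members fell, Pnpla3 among them, and Acaca RNA rose, where 14.5% of the 11922 genes tested fell and 16.1% rose, Acaca by 0.41 (adjusted p = 0.0862) on the log2 scale.

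The single genotypes gave the following RNA counts. In B livers of day 4, RNA of Srebf1, Acly, Acacb, Fasn and Me1 rose, where 4.41% of the 10993 genes tested rose and 3.73% fell, and on day 10 RNA of Srebf1, Scd1 and Me1 fell, where 7.48% of the 11296 genes tested fell and 8.14% rose. With all 24 mice in 1 fit 1 of the 5 rises of day 4 was called, where 266 of the 12040 genes tested rose. On day 10 the falls numbered 5 with DESeq2, where 744 of 11296 genes fell, and 5 without B mouse 3. They numbered 6 without a filter, where 949 of 16869 genes fell. The Scd1 call of day 10 was lost without WT mouse 1, WT mouse 3 or B mouse 2 (adjusted p = 0.134 to 0.143). In M livers of day 4, RNA of Srebf1, Acly, Acacb, Fasn and Thrsp rose and RNA of Scd1 fell, where 13.5% of the 11173 genes tested rose and 10.3% fell, and Scd1 was lost without WT mouse 1, WT mouse 3, M mouse 1 or M mouse 2 (adjusted p = 0.104 to 0.190). With all 24 mice in 1 fit the rises of Acacb and Fasn were called and, of the falls, that of Pnpla3 in place of Scd1. In that fit 1024 of the 12040 genes tested rose and 687 fell. Acacb RNA was higher in M mice, 127, 128 and 128 CPM against 96.9, 69.8 and 82.5 CPM (log2 change 0.62, SE 0.11, adjusted p = 0.00154), with a footprint change of 0.086 (adjusted p = 0.697). On day 10 in M livers, RNA of Acly, Acacb, Scd1, Elovl6 and Me1 fell, where 7.12% of the 11143 genes tested fell and 8.53% rose, Elovl6 losing its call without M mouse 1 (adjusted p = 0.134).

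Between the genotypes, RNA of 7 members was lower in BM than in M livers of day 4 (15.9% of the 11296 genes tested fell), of 6 lower than in B (16.7% fell), and on day 10 of 6 lower than in M (16.6% fell) and of 8 lower than in B (15.7% fell). The count of 7 was 4 with all 24 mice in 1 fit, where 1303 of the 12040 genes tested fell. It was also 4 without M mouse 1 or without BM mouse 3. Me1 RNA on day 10 differed by -2.15 (adjusted p = 0.000171) from M and -2.32 (adjusted p = 0.000128) from B on the log2 scale. From day 4 to day 10, RNA of Srebf1, Acly, Acacb and Fasn rose in WT mice, where 1.09% of genes rose, and RNA of Srebf1, Acacb, Scd1, Elovl6 and Me1 fell in BM mice, where 20.9% fell. The rises in WT mice numbered 2 with all 24 mice in 1 fit, where 30 of 12040 genes rose, and 7 without a filter, where 279 of 16641 rose. Srebf1 RNA of WT mice went from 60.3, 57.3 and 89.0 CPM to 159, 135 and 117 CPM (log2 change 1.0, SE 0.16, adjusted p = 0.00881, and 0.120 with all 24 mice), apart between the days. The BM effect on RNA was more negative on day 10 for 7 members, where 16.6% of genes fell, led by Me1 (log2 change -2.98, SE 0.25, adjusted p = 2.69e-06) and Scd1 (log2 change -2.83, SE 0.29, adjusted p = 1.94e-05). Those that did not pass were Acaca (log2 change -0.024, adjusted p = 0.946) and Thrsp (log2 change -0.42, adjusted p = 0.667), and Pnpla3, with no BM RNA count on day 10 (adjusted p = 0.258). Without BM mouse 1 of day 10, Thrsp passed (log2 change -1.43, adjusted p = 0.0106) and 8 members in all, where 23.8% of the 11899 genes tested fell. Without that mouse RNA of 8 members was lower than in M livers of day 10 (25.5% of all genes fell), of 8 lower than in B livers (23.7% fell), and of 8 lower than in BM livers of day 4 (28.7% fell).

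Translational efficiency (TE) is the number of footprints for a given amount of RNA, tested as the change in RPFs beyond the change in RNA in 1 model over both kinds of library. Both libraries of a mouse came from 1 lysate, and a fit with the mouse as a block uses that pairing. Without the block, edgeR called 1 member, Me1 in BM against WT livers of day 4, where TE of 0.522% of the 10528 genes tested fell. Me1 TE, as log2 of RPF CPM over RNA CPM, was 0.66, 0.61 and 0.68 in BM and 1.13, 1.36 and 1.16 in WT mice (log2 change -0.55, SE 0.14, adjusted p = 0.0783), so BM mice had fewer Me1 footprints per RNA. That call was lost with all 24 mice in 1 fit, with RNA of the counted transcript alone, and without any 1 of the WT mice, BM mouse 2 or BM mouse 3 (adjusted p = 0.105 to 0.259). Unblocked counts of members were 0 in the other comparisons with WT, where 0.0488% (B, day 4), 0.971% (M, day 4), 0.0564% (B, day 10), 0% (M, day 10) and 0.259% (BM, day 10) of genes passed, and 0 for the change of the BM effect between the days, where 0.31% passed. At an unadjusted p under 0.05 the members down in TE were 0 (B, day 4), 1 (M, day 4), 2 (BM, day 4), 1 (B, day 10), 1 (M, day 10), 2 (BM, day 10) and 0 (change of the BM effect). The shares of all genes down by that rule were, in the same order, 1.46%, 3.09%, 3.88%, 2.57%, 1.77%, 5.32% and 4.03%. DESeq2 called 2 in BM livers of day 4 and 0 in each of the others. The share of all genes that DESeq2 called in TE is not given here, so that count is not read as a result about the members. In M livers of day 10, where edgeR called 0 of all genes, 334 had an unadjusted p under 0.05 and DESeq2 called 3.

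With the mouse as a block, lower TE of Acacb, Fasn and Me1 was called in several genotypes. In BM livers of day 4 the log2 TE change was -0.67 (SE 0.11, adjusted p = 0.000309) for Acacb, -0.55 (SE 0.09, adjusted p = 0.000211) for Me1 and -0.45 (SE 0.095, adjusted p = 0.00424) for Fasn, where TE of 2.4% of genes fell. On day 10 it was -1.07 (SE 0.15, adjusted p = 0.00570) for Me1, -1.01 (SE 0.23, adjusted p = 0.0531) for Fasn and -0.93 (SE 0.17, adjusted p = 0.0218) for Acacb, where 2.83% fell. B livers of day 10 had the same 3, Fasn with -0.58 (SE 0.13, adjusted p = 0.0124), Acacb with -0.52 (SE 0.12, adjusted p = 0.0183) and Me1 with -0.45 (SE 0.12, adjusted p = 0.0436), where 1.28% fell. M livers of day 4 had Acacb with -0.54 (SE 0.12, adjusted p = 0.0101) and Me1 with -0.33 (SE 0.095, adjusted p = 0.0876), where 0.903% fell. No member was called with the block in B livers of day 4, where 0.274% of genes passed, in M livers of day 10, where 0.325% passed, or in the change of the BM effect between the days, where 1.87% passed.

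The per-mouse values show how far the groups lay apart. Acacb TE on the log2 scale was 1.68, 1.58 and 1.57 in WT, 1.04, 1.17 and 1.13 in B, 1.17, 1.31 and 1.33 in M and 0.90, 0.82 and 0.39 in BM mice of day 10, with every mouse of the 3 genotypes below the WT mice. Fasn TE was 2.36, 2.17 and 2.28 in WT, 1.53, 1.85 and 1.74 in B and 1.86, 1.14 and 0.85 in BM mice, the BM value of mouse 1 close to the B mice and those of mice 2 and 3 lower. Me1 TE was 1.33, 1.25 and 1.36 in WT and 0.20, 0.45 and 0.16 in BM mice, low in all 3. Acaca TE was 0.65, 0.60 and 0.52 in WT and 0.54, 0.19 and 0.40 in BM mice (log2 change -0.22, adjusted p = 0.848), and Scd1 TE was -2.57, -2.59 and -2.37 and -1.98, -1.82 and -2.16 (log2 change 0.51, adjusted p = 0.569). Without BM mouse 1 and without the block, 11.1% of the 10627 genes tested had lower TE in BM livers of day 10. The members among them were 4, Fasn with -1.30 (adjusted p = 0.0213), Acacb with -1.02 (adjusted p = 0.00641), Me1 with -1.02 (adjusted p = 0.0631) and Srebf1 with -0.89 (adjusted p = 0.0633). Srebf1 TE was 1.12, 0.076 and -0.29 in the 3 BM mice and 0.92, 0.68 and 0.69 in the WT mice, so that mouse 1 and the other two lay on opposite sides of WT. For mouse 1 alone 0 members passed.

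**Figure D4:**
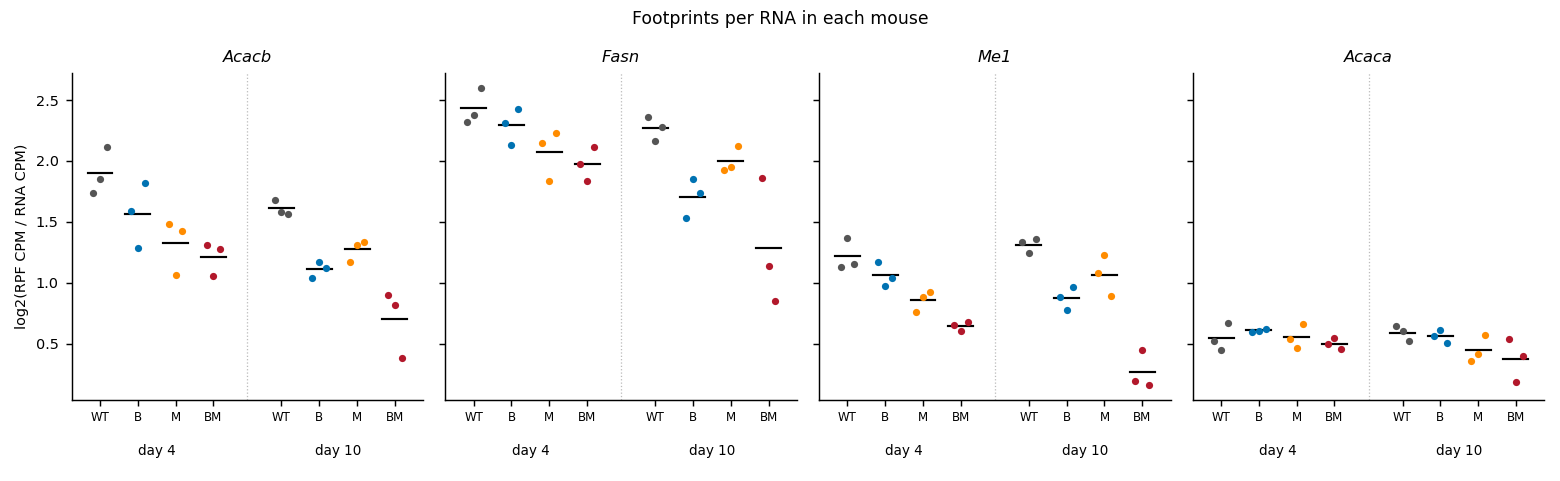
Footprints per RNA, log2(RPF CPM / RNA CPM), of Acacb, Fasn, Me1 and Acaca in each mouse, 1 point a mouse and a bar at the mean of 3, on 1 shared axis. Acacb, Fasn and Me1 step down from WT to BM on both days, and Acaca lies between 0.19 and 0.67 in all groups.

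For the other lists, the shares of all genes are those given above. Footprints of 6.21% rose and 6.26% fell in B, 18.5% and 14.7% in M and 26.2% and 24.7% in BM livers of day 4, and on day 10 13.1% and 12.1% in B, 10.6% and 8.8% in M and 24.5% and 22.3% in BM livers. The lists are small, and nothing particular to them was tested. Of 14 regulators of the pathway, all tested, in B livers of day 4 0 rose and 2 fell, in M 1 rose and 5 fell and in BM 1 rose and 9 fell. On day 10, 1 rose and 6 fell in B, 1 rose and 4 fell in M and 2 rose and 9 fell in BM livers, with a median log2 change in BM of -0.33 on day 4 and -0.52 on day 10. Without BM mouse 1 of day 10, 2 rose and 11 fell, where 32.9% of all genes fell. Insig2, which holds the SREBP complex in the endoplasmic reticulum, was at 33.0, 50.3 and 45.8 CPM in BM and 131, 127 and 146 CPM in WT mice of day 4 (log2 change -1.62, SE 0.14, adjusted p = 6.15e-06). On day 10 it was at 29.6, 25.9 and 42.0 CPM and 116, 95.1 and 115 CPM (log2 change -1.76, SE 0.21, adjusted p = 0.00113). Its paralogue Insig1, itself an SREBP target, was at 91.5, 60.9 and 61.8 CPM and 151, 115 and 163 CPM on day 4 (log2 change -0.98, SE 0.16, adjusted p = 0.000565). On day 10 it was at 164, 57.1 and 34.9 CPM and 264, 217 and 169 CPM (log2 change -1.36, SE 0.51, adjusted p = 0.0705), mouse 1 again the highest, and without it the log2 change was -2.24 (adjusted p = 1.61e-05). Mbtps2, one of the proteases that cut SREBP, rose in BM livers, 18.4, 16.6 and 12.7 CPM against 8.09, 9.10 and 8.70 CPM on day 4 (log2 change 0.91, SE 0.15, adjusted p = 0.000669) and 21.9, 19.7 and 23.3 CPM against 6.65, 6.04 and 7.33 CPM on day 10 (log2 change 1.68, SE 0.17, adjusted p = 0.000655). Mlxipl, which encodes the carbohydrate-responsive factor ChREBP, did not pass in BM livers of day 4, with 106, 109 and 101 CPM against 111, 92.6 and 114 CPM (adjusted p = 0.894), and on day 10 fell to 58.4, 30 and 22.6 CPM from 121, 110.3 and 115 CPM (log2 change -1.66, SE 0.32, adjusted p = 0.00690). It also fell in B livers of day 10, to 78.9, 68.0 and 55.2 CPM (log2 change -0.80, SE 0.13, adjusted p = 0.00419), with M at 115, 143 and 116 CPM (adjusted p = 0.600).

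The next list holds enzymes that supply carbon and NADPH. Of 9, all tested, in B livers of day 4 4 rose and 0 fell, in M 4 rose and 1 fell and in BM 1 rose and 6 fell. On day 10, 0 rose and 4 fell in B, 0 rose and 2 fell in M and 0 rose and 7 fell in BM livers (1 and 7 without mouse 1), with a median log2 change in BM of -0.53 on day 4 and -1.22 on day 10. The 1 fall in M livers of day 4 was near the share of all genes. Acss2, which makes acetyl-CoA from acetate, was at 692, 769 and 839 CPM in B, 199, 184 and 160.1 CPM in BM and 319, 264 and 419 CPM in WT mice of day 4, a rise in B (log2 change 1.2, SE 0.15, adjusted p = 0.000833) and a fall in BM (log2 change -0.86, SE 0.15, adjusted p = 0.000725). Khk, fructokinase, fell in BM livers of day 4 (log2 change -0.70, SE 0.13, adjusted p = 0.00125), and so did Mdh1, the cytosolic malate dehydrogenase (log2 change -0.63, SE 0.077, adjusted p = 6.85e-05). On day 10 Mdh1 was at 808, 1736 and 2039 CPM in BM and 1140, 1088 and 1155 CPM in WT mice, mouse 1 below and mice 2 and 3 above WT (log2 change 0.43, adjusted p = 0.323). Without mouse 1 it rose (log2 change 0.73, adjusted p = 0.000929). On day 10 Pklr, liver pyruvate kinase, was at 63.4, 69.6 and 53.1 CPM in BM, 141, 139.6 and 110.0 CPM in B and 570.3, 268 and 419 CPM in WT mice (BM: log2 change -2.77, SE 0.29, adjusted p = 0.000712). Idh1, an NADPH source, fell as well in BM livers of day 10 (log2 change -1.41, SE 0.16, adjusted p = 0.000939).

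Other enzymes of fatty acid elongation and desaturation gave the following counts. Of 11, all tested, in B livers of day 4 4 rose and 0 fell, in M 0 rose and 7 fell and in BM 1 rose and 9 fell. On day 10, 3 rose and 4 fell in B, 0 rose and 6 fell in M and 1 rose and 9 fell in BM livers (1 and 10 without mouse 1), with a median log2 change in BM of -0.36 on day 4 and -1.65 on day 10. Elovl3, which lengthens saturated fatty acids, was nearly without footprints, at 0.638, 0.543 and 0.909 CPM in BM and 456, 223 and 457 CPM in WT mice of day 10 (adjusted p = 4.34e-05), having been at 194, 167 and 165 CPM in BM mice of day 4. Elovl5, an elongase of polyunsaturated chains, was at 142, 143 and 128 CPM in BM and 378, 384 and 405 CPM in WT mice of day 4 (log2 change -1.48, SE 0.08, adjusted p = 2.42e-07). On day 10 it was at 68.4, 83.8 and 82.8 CPM and 463, 471 and 457 CPM (log2 change -2.58, SE 0.16, adjusted p = 0.000108). Scd2, the paralogue of Scd1, with which short reads may be shared, was at 36.3, 31.3 and 25.9 CPM in BM and 209, 199 and 225 CPM in WT mice of day 10 (log2 change -2.77, SE 0.18, adjusted p = 0.000108). BM mouse 1 was far below WT in these 3 genes, like mice 2 and 3.

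Triglyceride synthesis and droplet genes were read in the same way. Of 22 listed, of which 19 were tested (20 in BM livers of day 10), in B livers of day 4 3 rose and 0 fell, in M 1 rose and 5 fell and in BM 1 rose and 9 fell. On day 10, 3 rose and 5 fell in B, 0 rose and 5 fell in M and 6 rose and 10 fell in BM livers (6 and 12 without mouse 1), with a median log2 change in BM of -0.28 on day 4 and -0.42 on day 10. The 6 rises were near the share of all genes, as were the 3 of B livers of day 10. G0s2, an inhibitor of the lipase encoded by Pnpla2, was at 1.80, 0.699 and 0.0826 CPM in BM and 18.5, 5.63 and 7.21 CPM in WT mice of day 10 (log2 change -3.52, SE 0.74, adjusted p = 0.00904, and -4.71 without mouse 1). Pnpla2 was at 83.7, 304 and 379 CPM and 31.2, 19.4 and 26.4 CPM (log2 change 3.30, SE 0.53, adjusted p = 0.00315). The lipase was highest in BM mice 2 and 3, and without mouse 1 its log2 change was 3.72 (adjusted p = 1.16e-07). Lpin1, a phosphatidate phosphatase and coactivator that fasting raises, was below WT in BM mice of day 4, 34.0, 24.6 and 23.7 CPM against 47.8, 106 and 127 CPM (log2 change -1.74, SE 0.29, adjusted p = 0.000535). On day 10 it was at 105, 807 and 1326 CPM against 86.2, 83.5 and 61.6 CPM (log2 change 3.26, SE 0.76, adjusted p = 0.0135), with mouse 1 just above WT and a log2 change of 3.78 without it. Plin2, the droplet coat protein, was at 243, 74.4 and 81.4 CPM and 649, 516 and 591 CPM on day 10 (log2 change -2.15, SE 0.45, adjusted p = 0.00868, and -2.92 without mouse 1). Plin4, a droplet protein typical of fat tissue, was at 22.2, 24.1 and 14.9 CPM in BM and 0.787, 0.716 and 0 CPM in WT mice of day 10 (adjusted p = 0.000624), high in all 3 BM mice.

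Lipogenesis genes are also expressed in fat tissue, so 6 adipocyte markers were read. Their summed RPF level was 9.44 to 14.4 CPM in WT and 12.5 to 33.4 CPM in BM mice of day 10, and 5.13 to 33.4 CPM over all 24 mice. Nearly all of it was Fabp4, which endothelial cells and macrophages also express, at 12.5, 31.0 and 33.3 CPM in BM and 9.01, 14.4 and 13.5 CPM in WT mice of day 10. The defining genes Adipoq, Plin1 and Retn were at or near 0, with no Adipoq and no Retn footprint in the BM mice of day 10 and Plin1 at 0, 0 and 0.0826 CPM. Kupffer cell markers summed to 657 to 725 CPM in BM and 410.2 to 593 CPM in WT mice of day 10, apart between the groups, and on day 4 to 314 to 331 CPM and 534 to 621 CPM, apart the other way. On day 4 the BM mice also lay below every WT mouse in the sums of endothelial (560.1 to 634 and 706 to 796 CPM), stellate cell (460 to 583 and 708 to 786 CPM), cholangiocyte (36.1 to 53.9 and 85.7 to 133 CPM), blood cell (169 to 238 and 358 to 373 CPM) and adipocyte markers (5.13 to 7.87 and 10.9 to 20.3 CPM). On day 10 endothelial markers summed to 601 to 739 and 705 to 845 CPM, stellate cell markers to 699 to 736 and 760.4 to 917 CPM, cholangiocyte markers to 35.7 to 63.3 and 43.5 to 84.3 CPM and blood cell markers to 209 to 789 and 360.4 to 428 CPM in BM and WT mice of day 10, with stellate cell markers alone of these apart. In M mice of day 4, the sums of endothelial (536 to 684 CPM), stellate cell (558 to 678 CPM), cholangiocyte (43.8 to 62.8 CPM) and blood cell markers (172 to 283 CPM) lay below every WT mouse, and in M mice of day 10 so did endothelial (534 to 587 CPM), stellate cell (618 to 660.3 CPM) and blood cell markers (199 to 306 CPM). In B mice, Kupffer cell (413 to 497 CPM) and cholangiocyte markers (59.6 to 63.8 CPM) of day 4 and stellate cell markers of day 10 (423 to 689 CPM) lay below every WT mouse, and blood cell markers of day 10 (525 to 795 CPM) above. The part of these markers in the members' changes was not tested.

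Over the 24 mice, the members did not vary as one block. As a description over mice that share genotypes and days, with no test, the highest Pearson r between log2 RPF levels was 0.969 for Acacb and Scd1, then 0.950 for Scd1 and Me1 and 0.947 for Acacb and Me1. The lowest was 0.131 for Acaca and Me1. Between the highest and the lowest group mean, RPF levels spanned 17.7-fold for Me1, 15.3-fold for Scd1, 8.02-fold for Acacb, 3.18-fold for Fasn and 1.14-fold for Acaca. Among 6746 other genes with a mean RPF level of 10 CPM or more, the 5 whose log2 level most resembled the mean of the 10 members over the 24 mice were Capn2 (r = 0.941), Sc5d (r = 0.941), Cyp2c23 (r = 0.936), Cutal (r = 0.934) and Acat2 (r = 0.932). Sc5d and Acat2 encode enzymes of the cholesterol pathway.

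The genes lie apart in the genome (GRCm39). On chromosome 11 are Srebf1 at chr11:60089913-60113407, Acaca at chr11:84020476-84292477, Acly at chr11:100367165-100440756 and Fasn at chr11:120696672-120715995. Elovl6 is at chr3:129326004-129432144, Acacb at chr5:114284307-114388822, Thrsp at chr7:97062139-97066937, Me1 at chr9:86462646-86578104, Pnpla3 at chr15:84051943-84073723 and Scd1 at chr19:44382894-44399154. RPFs were counted on 1 transcript a gene and RNA over all of its listed isoforms, of which Acly and Elovl6 had 3, Fasn and Me1 2 and the other 6 genes 1.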

How the data were processed

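RPF and RNA libraries were made from the same liver lysates of 24 mice (8 groups of 3), and groups were read from the genotype and day labels. The authors trimmed reads with cutadapt 1.18, removed duplicates by unique molecular identifiers with UMI-tools and removed rRNA and tRNA reads with BBmap. RPFs were then aligned with BBmap to GENCODE vM27 (GRCm39) protein-coding transcripts, and the deposited RPF counts are whole reads on the coding part, less its outermost codons, of 1 transcript a gene, the most abundant. RNA was aligned with Bowtie2 2.3.5.1 and quantified with RSEM 1.3.3, whose deposited expected counts and TPM were given by isoform. Isoforms were summed by gene here and rounded to whole counts, and genes were matched by the symbol in the files. Levels are CPM on library sizes scaled by TMM. The 24 RPF libraries held 9742197 to 14380713 counts and the RNA libraries 3254141 to 6540116, so that low genes such as Pnpla3 are limited by counting error. Nothing in the labels says whether mice of a group were litter mates.

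Each comparison was fitted on the mice of its own groups with edgeR 4.0.16 (quasi-likelihood test, TMM, filterByExpr with a minimum count of 10 and a total of 15, R 4.3.3, limma 3.58.1), two-sided, with Benjamini-Hochberg adjustment over all genes tested and a threshold of 0.1. TE was the interaction of group and library type. The files were assumed and found to hold whole RPF counts and RSEM expected counts, and the fits were tested on simulated data. Within a mouse, RPF and RNA deviations from the group means correlated at 0.128 to 0.591 (median 0.346, 24 mice), and since both libraries came from 1 animal the TE fit with the mouse as a block is printed beside the fit without it. Alternatives were RLE normalization, no filter, DESeq2 1.42.0, all 24 mice in 1 fit, the replicate block, RNA of the counted transcript alone, leaving out each mouse and, added after seeing the data, BM mouse 1 of day 10 alone. Named beside the 10 members are, from each pathway list (regulators, carbon and NADPH supply, other elongation and desaturation, triglyceride and droplet), the 3 genes with the largest RPF change in BM against WT livers of each day among those called without overlap between mice, Mlxipl and Insig1, the 5 genes most like the members, Glul, Myc, cell type markers, and fasting and clock genes of the mice that stood apart. A gene that this rule names is not reported here. The members, lists and tests were chosen with earlier results of these data known. Figures were drawn with matplotlib 3.10.9 under Python 3.11.15. Coding lengths for RPF CPM per kilobase came from a later GENCODE release than the files used, and promoter windows from RefSeq, GRCm38.p6, for 9 of the 10 genes, placed on GRCm39 by exact match.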

Additional observations from a re-analysis of the deposited data

Results flagged for a closer look

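The BM effect against WT differed between day 4 and day 10 for 7 members in RPFs and 7 in RNA, by the edgeR test of the difference itself. For Srebf1, the factor that drives the pathway, the day 10 minus day 4 difference in log2 change was -2.00 in RPFs and -2.14 in RNA. For Acly it was -1.46 and -1.17, for Acacb -1.81 and -1.60, and for Elovl6 -0.99 and -1.42. The desaturase Scd1 had -2.34 and -2.83, and Me1, the NADPH source, had -3.48 and -2.98. Fasn passed in RNA, with -1.44, and had -1.69 in RPFs without passing (adjusted p = 0.111). Without BM mouse 1 of day 10 its RPF value passed too, at -3.00. Pnpla3 differed in RPFs, with a fitted value of -5.13 that rests on libraries without a count and is no bound on the size.

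In 8 further cases every mouse of a single genotype lay above every WT mouse on day 4 and below every WT mouse on day 10. The difference between the days was not tested for them. The same pattern was found in 1.86% of the 11003 genes tested on both days for B in RPFs and 1.36% of 10909 in RNA, and for M in 0.281% of 11026 in RPFs and 0.383% of 10972 in RNA. In B livers these were Srebf1 in RPFs (log2 change 0.70 on day 4 and -0.87 on day 10) and RNA (0.78 and -0.74), Me1 in RPFs (0.34 and -1.21) and RNA (0.50 and -0.75), and Scd1 in RPFs (0.19, which did not pass, and -1.03). In M livers these were Acly in RPFs (0.55 and -0.94) and RNA (0.55 and -0.78), and Acacb in RNA (0.62 and -0.54).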

How the results depend on the processing

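No change in direction was found among 152 changes of named genes that passed, over 824 values from alternatives other than leaving out a mouse, of which 42 no longer passed, 33 of them with all 24 mice in 1 fit, 6 with DESeq2 and 1 each without a filter, with RNA of the counted transcript alone and in BM mouse 1 of day 10 alone. Of 996 values that leave out a mouse, 113 no longer passed and none changed direction. Counts of members called that moved by over 1.5 times were as follows, and the cause was not tested beyond the fewer or added mice and genes of each fit. With all 24 mice in 1 fit, RPF counts were 0 (B, day 4), 2 (M, day 4) and 0 (WT, days), RNA counts 1 (B, day 4), 3 (M, day 4), 4 (BM against M, day 4) and 2 (WT, days), and TE counts 0 (BM, day 4) and 2 (BM, day 10). Of 12000 genes tested for RPFs in it, 335 rose and 242 fell (B, day 4), 1282 and 1106 (M, day 4) and 33 and 104 (WT, days). Of 12040 tested for RNA, 266 rose and 191 fell (B, day 4), 1024 and 687 (M, day 4), 1115 and 1303 (BM against M, day 4) and 30 and 54 (WT, days). DESeq2 gave 3 (RPF, B, day 4), 5 (RNA, B, day 10) and 2 (TE, BM, day 4). Of all genes it called 588 up and 536 down of 11058 (RPF, B, day 4) and 742 up and 744 down of 11296 (RNA, B, day 10). Without a filter the counts were 3 (RPF, WT, days), 6 (RNA, B, day 10), 7 (RNA, WT, days) and 2 (TE, BM, day 4). Of all genes, 280 rose and 336 fell of 14145 (RPF, WT, days) in that fit. For RNA, 1044 rose and 949 fell of 16869 (B, day 10) and 279 rose and 232 fell of 16641 (WT, days). RNA of the counted transcript alone gave 0 (TE, BM, day 4). With the replicate block, which for TE is the mouse, counts of TE calls were 2 (M, day 4), 3 (BM, day 4), 3 (B, day 10) and 3 (BM, day 10), and the block changed no other called direction. Across genotypes the replicate numbers are only shared numbers: deviations of same-numbered mice correlated at -0.162 to 0.183 in RPFs and -0.143 to 0.172 in RNA (30 pairs each). For RPFs and RNA the block was not run between days.

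Leaving out 1 mouse gave RPF counts of 2 to 5 (B, day 4), 3 to 7 (M, day 4), 6 to 7 (BM, day 4), 6 to 7 (B, day 10), 5 to 6 (M, day 10), 7 to 10 (BM, day 10), 5 to 8 (BM against M, day 4), 8 to 9 (BM against B, day 4), 3 to 8 (BM against M, day 10), 4 to 9 (BM against B, day 10), 1 to 5 (WT, days), 4 to 9 (BM, days), 5 to 10 (change of the BM effect). RNA counts were 5 to 6 (B, day 4), 5 to 7 (M, day 4), 5 to 7 (BM, day 4), 3 to 5 (B, day 10), 5 to 6 (M, day 10), 7 to 9 (BM, day 10), 4 to 7 (BM against M, day 4), 6 to 7 (BM against B, day 4), 5 to 8 (BM against M, day 10), 6 to 8 (BM against B, day 10), 3 to 5 (WT, days), 4 to 8 (BM, days), 6 to 8 (change of the BM effect), and TE counts 0 to 0 (B, day 4), 0 to 0 (M, day 4), 0 to 1 (BM, day 4), 0 to 0 (B, day 10), 0 to 0 (M, day 10), 0 to 4 (BM, day 10), 0 to 0 (change of the BM effect). The mice that moved a count by over 1.5 times were, in RPFs, WT mouse 1 (to 3), WT mouse 2 (to 3) and B mouse 2 (to 2) for B of day 4, M mouse 2 (to 7) for M of day 4, M mouse 1 and BM mouse 2 (to 3) for BM against M of day 10, WT mouse 3 of day 4 (to 3) and mice 2 (to 5) and 3 (to 2) of day 10 for WT between days, and BM mouse 1 of day 10 (to 9) for BM between days. In RNA they were B mouse 3 (to 5) for B of day 10, M mouse 1 and BM mouse 3 (to 4) for BM against M of day 4, and BM mouse 1 of day 10 (to 8) for BM between days. In TE they were WT mice 1 and 3 and BM mice 2 and 3 (to 0) for BM of day 4, and BM mouse 1 (to 4) for BM of day 10. Of the fits that leave out 1 mouse, shares of all genes are given only for those without BM mouse 1 of day 10. The other ranges are therefore not read as results about the members. Depth limits Pnpla3, which had at most 40 RPF and 20 RNA counts in a library. All results are from whole liver and 3 mice a group, and neither hepatocyte number nor feeding state was held fixed.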
